A study of Mus musculus with 34 samples.

Results

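A set of 10 immediate early response genes, which cells switch on first after a stimulus, was followed through 9 groups of mouse pancreatic islets by bulk RNA-seq. The genes were taken by name from the table of total counts as Fos, Fosb, Jun, Junb, Atf3, Egr1, Nab2, Nr4a1, Ier2 and Dusp1, and all 10 of 10 names were found among the 48709 genes of the table. All 10 also passed the filter on low counts, which left 17616 genes to be tested. No measured value entered the rule, although earlier results of these data were known when the names were chosen.

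The series asked how islets respond at the level of RNA after part of the beta cells has been removed. All mice, the controls included, had the genotype label RIP-DTR HTZ. RIP is the rat insulin promoter and DTR the diphtheria toxin receptor it drives, which makes insulin-producing cells sensitive to the toxin. Untreated islets made up the groups CTRL (n = 3, with no time or diet in the label), CTRL SD (n = 3) and CTRL HFD (n = 4), the last pair labelled 10 weeks. Diphtheria toxin (DT) had been given in DT 5 DPA (n = 4) and DT 30 DPA (n = 4), with no diet in the label, and in DT SD (n = 4) and DT HFD (n = 3) at 10 weeks. Streptozotocin (STZ), a compound that enters beta cells through their glucose transporter, had been given at 75 mg/kg in STZ SD (n = 4) and STZ HFD (n = 4) at 10 weeks. SD and HFD are the diet names of the labels, and the sources used here do not give age or sex. The labels do not say that libraries of a group came from separate animals, so p-values measure the spread between these samples.

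Immediate early genes are transcribed within minutes of a growth factor, a rise in calcium or cAMP, a cytokine or a stress, from transcription factors that are already present in the cell, and their short-lived messengers disappear again soon afterwards. FOS and JUN proteins pair to form the transcription factor AP-1, and ATF3 is a stress-induced partner of the same bZIP class. EGR1 is a zinc finger factor that is held in check by the corepressor NAB2, NR4A1 is an orphan nuclear receptor, IER2 is a small nuclear protein, and DUSP1 is a phosphatase that switches MAP kinases off. In islets these genes are known to answer to glucose, to cytokines and to the isolation procedure itself.

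Promoter sequences are shown for 5 members, because the members fall into those with and without the core of the cAMP response element in front of their start site. RefSeq (GRCm38.p6) gave a window of 250 bases upstream of the start site for 8 of 10 members, while Ier2 and Egr1 had no entry. Each sequence runs 5′ to 3′ on the gene's own strand, leaves out bases that GENCODE assigns to an exon of the gene, and has the motif matches in capitals. The windows lie at chr7:19310052-19310295 (minus strand), chr17:26508520-26508722 (minus), chr4:95052223-95052472 (minus), chr12:85473640-85473889 (plus) and chr15:101266596-101266845 (plus).
Fosb: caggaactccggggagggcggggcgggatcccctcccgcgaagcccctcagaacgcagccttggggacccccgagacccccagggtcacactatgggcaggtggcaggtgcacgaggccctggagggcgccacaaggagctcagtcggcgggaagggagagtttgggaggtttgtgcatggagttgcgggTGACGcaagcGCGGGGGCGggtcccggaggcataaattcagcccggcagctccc
Dusp1: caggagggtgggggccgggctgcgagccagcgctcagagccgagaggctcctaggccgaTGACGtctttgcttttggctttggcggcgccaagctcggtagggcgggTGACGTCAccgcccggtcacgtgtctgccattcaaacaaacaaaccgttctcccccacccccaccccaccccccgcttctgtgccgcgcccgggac
Jun: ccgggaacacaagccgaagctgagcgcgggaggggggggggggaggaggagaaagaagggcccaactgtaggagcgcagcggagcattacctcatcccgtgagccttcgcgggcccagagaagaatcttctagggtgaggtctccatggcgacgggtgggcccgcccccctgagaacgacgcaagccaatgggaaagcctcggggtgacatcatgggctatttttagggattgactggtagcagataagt
Fos: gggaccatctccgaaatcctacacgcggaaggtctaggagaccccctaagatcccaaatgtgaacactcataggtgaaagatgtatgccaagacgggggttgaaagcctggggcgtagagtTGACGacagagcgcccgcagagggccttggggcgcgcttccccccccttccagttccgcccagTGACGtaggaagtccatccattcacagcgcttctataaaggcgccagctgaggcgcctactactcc
Nr4a1: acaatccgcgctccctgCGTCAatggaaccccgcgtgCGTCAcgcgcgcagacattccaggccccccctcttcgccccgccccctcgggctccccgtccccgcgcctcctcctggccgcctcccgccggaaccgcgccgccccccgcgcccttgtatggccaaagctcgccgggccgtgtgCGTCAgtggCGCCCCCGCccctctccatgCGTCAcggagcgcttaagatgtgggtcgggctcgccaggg

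Both strands were searched. The core TGACG, which is part of the full element TGACGTCA, occurred in the windows of Fos, Fosb, Junb, Atf3, Dusp1 and Nr4a1 (6 of 8) and in 17.8% of 32851 RefSeq windows of the same length. Nr4a1 held 4 copies, the nearest at bases 40 to 36 before the start site. Fos held 2, at bases 129 to 125 and 66 to 62. Of the 8 windows that of Dusp1 alone held the full element, at bases 143 to 136, which 1.55% of all windows held. The EGR site GCGNGGGCG occurred in front of Fosb and Nr4a1 and in 4.70% of all windows. None of the 8 windows had the AP-1 site TGANTCA (6.75% of all windows) or a CArG box (1.47%), and Jun and Nab2 had none of the motifs searched. In Atf3 the core lies at bases 7 to 3, within bases that GENCODE counts as exonic. These matches describe letters in 1 window per gene, and GENCODE has longer transcripts of Atf3, Dusp1, Nr4a1 and Nab2 that start elsewhere.

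Total counts ranged from 11083117 to 18918348 per library. Beta cell markers were abundant in every group, and no list of markers was absent from a whole group except for the enterocyte genes Sis and Alpi in DT SD. The libraries held other tissue as well. In 8 of 33 libraries the summed level of 10 enterocyte markers exceeded 500 CPM (counts scaled to library size), namely 3 of DT 5 DPA, 2 of STZ SD and 1 each of CTRL, DT 30 DPA and DT HFD. RNA of acinar cells, which make digestive enzymes, varied still more. The sum of 12 acinar markers was 2003 to 13904 CPM in CTRL, reached 192370 in STZ SD and 181480 in DT SD, and set STZ HFD replicate 4 apart at 699020 CPM, against 7564 to 90795 in the other 3 STZ HFD libraries. TMM scaling set the size of STZ HFD replicate 4 well below its 13347245 counts, so 699020 CPM overstates the share of its reads. In bulk islets fewer cells of a type and less RNA per cell cannot be told apart.

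**Figure D1:**
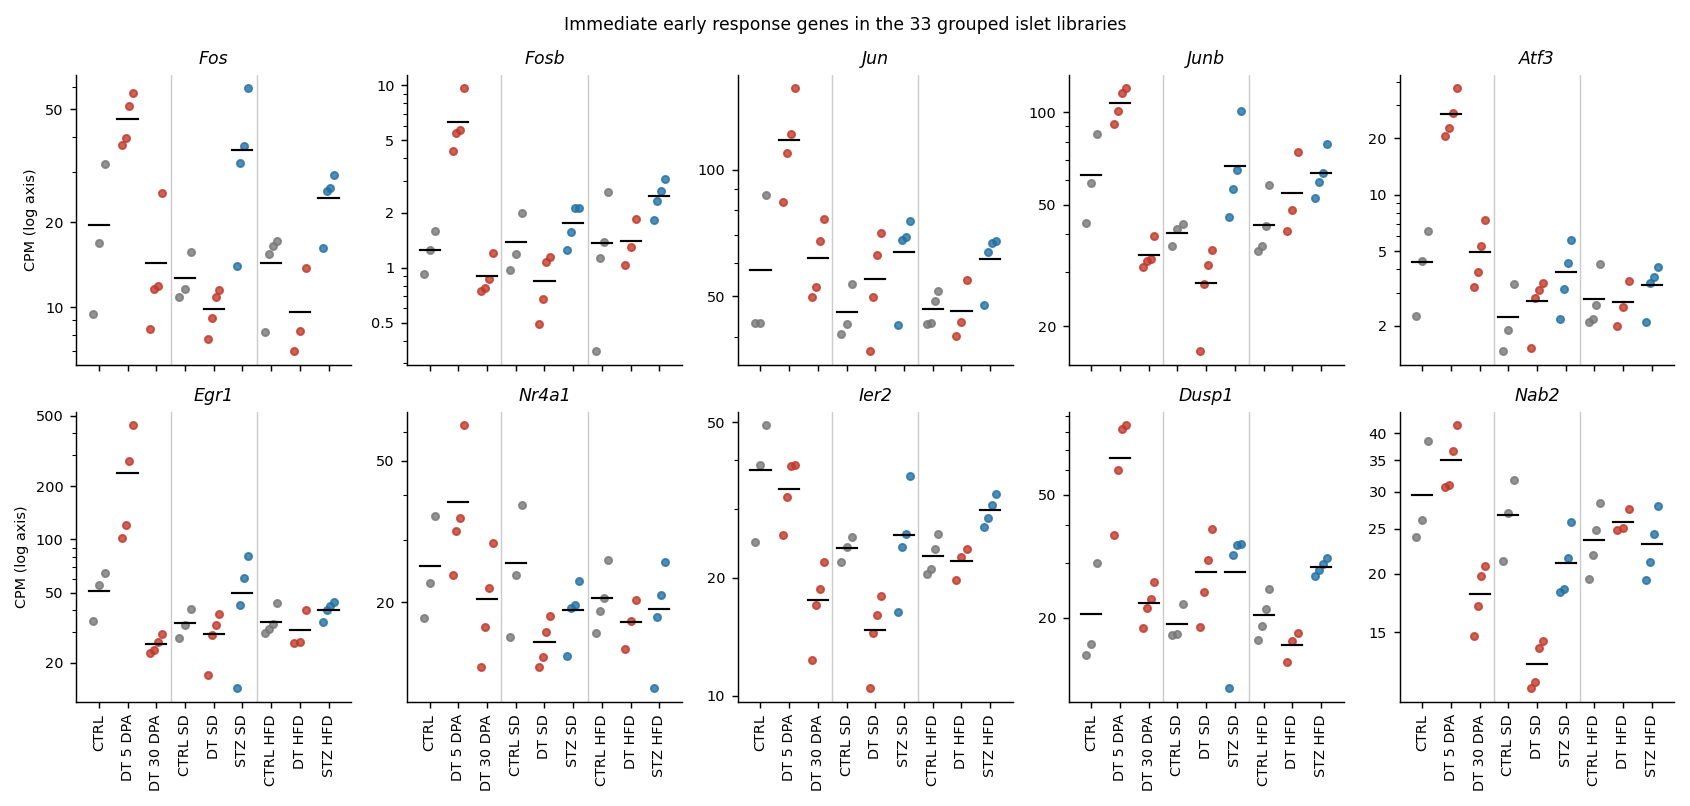
Level of each of the 10 genes in CPM on a log axis, 1 point per library, with the group mean as a black line and colours for untreated (grey), DT (red) and STZ (blue). The highest single library of Fosb, Jun, Junb, Atf3, Egr1, Dusp1, Nr4a1 and Nab2 is in DT 5 DPA, that of Fos in STZ SD and that of Ier2 in CTRL.

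At 5 DPA, 5 of 10 members were higher than in CTRL: Atf3, Fosb, Egr1, Dusp1 and Jun. None was lower. Of all genes tested, 3.80% were called higher. The members' median log2 fold change was 1.14, beside -0.05 over all genes. A gene is called here where its adjusted p (Benjamini-Hochberg, over all 17616 genes) was below 0.05 in the quasi-likelihood F test of edgeR. For 6 members (Fos, Fosb, Junb, Atf3, Egr1 and Dusp1) every DT 5 DPA library lay above every CTRL library, as for 9.64% of all genes.

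Among the AP-1 subunits Fosb had the largest difference. It stood at 0.926, 1.26 and 1.60 CPM in CTRL and at 4.35, 5.45, 5.72 and 9.70 in DT 5 DPA. The groups did not overlap, and Fosb remained the least abundant member. Its mean rose from 1.26 ± 0.336 (SD, n = 3) to 6.30 ± 2.34 CPM (SD, n = 4), a 4.97-fold difference (log2 2.31, SE 0.46, adjusted p = 0.00223).

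Jun, the DNA-binding partner of FOS, stood at 43.2, 43.2 and 86.9 CPM in CTRL and at 83.6, 109.8, 121 and 157 in DT 5 DPA. The groups overlapped, since the highest CTRL library lay above the lowest DT 5 DPA library. The mean rose from 57.8 ± 25.2 to 118 ± 30.3 CPM (SD, n = 3 and 4; log2 fold change 1.03, SE 0.25, adjusted p = 0.0127). This call was lost in 5 of 15 alternatives, among them those that left out replicate 1 or 2 of CTRL or replicate 3 of DT 5 DPA, while the log2 fold change ranged from 0.86 to 1.45 over all 15.

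Fos itself stood at 9.49, 16.8 and 32.1 CPM in CTRL and at 37.4, 39.7, 51.2 and 56.9 in DT 5 DPA. All DT libraries were higher, but the CTRL libraries differed more than 3-fold among themselves, and the log2 fold change of 1.25 (SE 0.41) did not pass (adjusted p = 0.0769). Junb, a JUN relative with weaker transactivating activity, stood at 43.4, 58.9 and 85.2 CPM in CTRL and 91.5, 101, 116 and 120.3 in DT 5 DPA. Its groups did not overlap either, and its log2 fold change of 0.78 (SE 0.26) did not pass (adjusted p = 0.0825). DESeq2 called both (adjusted p = 0.0259 for Fos and 0.0400 for Junb), as edgeR did Fos without CTRL replicate 3 and Junb without CTRL replicate 2.

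Atf3 had the largest fold change of the 10. Its values were 2.26, 4.43 and 6.39 CPM in CTRL and 20.4, 22.8, 27.2 and 37.2 in DT 5 DPA, so that the lowest DT library was more than 3-fold above the highest CTRL library. The mean rose from 4.36 ± 2.07 to 26.9 ± 7.41 CPM (SD, n = 3 and 4; log2 fold change 2.62, SE 0.41, adjusted p = 0.000167). Atf3 and Fosb were called in all 15 alternatives.

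Egr1 varied most among the DT 5 DPA libraries. It stood at 34.7, 55.0 and 64.6 CPM in CTRL and at 103, 120.4, 278 and 446 in DT 5 DPA, with replicate 3 highest. The groups did not overlap. The mean rose from 51.4 ± 15.3 to 237 ± 160.3 CPM (SD, n = 3 and 4), 4.605-fold in the fit (log2 2.20, SE 0.45, adjusted p = 0.00250). Nab2, which encodes the corepressor of EGR1 and is itself an EGR target, did not pass at this time. It stood at 24.0, 26.0 and 38.5 CPM in CTRL and 30.8, 31.1, 36.7 and 41.7 in DT 5 DPA, with overlapping groups (log2 fold change 0.25, adjusted p = 0.479).

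Dusp1, which closes the feedback loop on MAP kinases, stood at 15.2, 16.4 and 30.0 CPM in CTRL and at 37.0, 59.9, 81.6 and 84.2 in DT 5 DPA. The groups did not overlap, and the mean rose from 20.5 ± 8.22 to 65.7 ± 22.0 CPM (SD, n = 3 and 4; log2 fold change 1.68, SE 0.31, adjusted p = 0.000983). Nr4a1 and Ier2 did not pass, and their groups overlapped. Nr4a1 stood at 18.1 to 35.0 CPM in CTRL and 23.9 to 63.0 in DT 5 DPA (log2 fold change 0.60, adjusted p = 0.312). Ier2 stood at 24.7 to 49.3 CPM in CTRL and 25.7 to 38.9 in DT 5 DPA, and its estimate was the only one below 0 (log2 fold change -0.15, adjusted p = 0.773). Its sign turned in some alternatives, where the estimate ranged from -0.38 to 0.30.

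Markers of other cells moved in the same comparison. All 10 myeloid markers tested were higher at 5 DPA (median log2 fold change 2.18), and their summed level ranged from 5183 to 7598 CPM in DT 5 DPA against 713.9 to 1815 in CTRL. Of 7 fibroblast and mesenchyme markers 4 were higher, with sums of 3084 to 4272 CPM against 713.5 to 1249. None of the 10 beta cell markers passed (median log2 fold change -0.31). The part of myeloid and mesenchymal cells in the members' rise was not tested. Without the 8 libraries with enterocyte RNA, DT 5 DPA is replicate 3 alone, the library with the highest Fosb, Jun, Egr1, Dusp1 and Nr4a1 of all 33. The log2 fold change of Jun was then 1.27, from this 1 library. Fitted on the compared groups alone, with all their libraries, 2 of 10 members were called, Atf3 and Fosb. The log2 fold changes of the others were then 2.19 (Egr1), 1.67 (Dusp1) and 1.02 (Jun), close to those above.

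**Figure D2:**
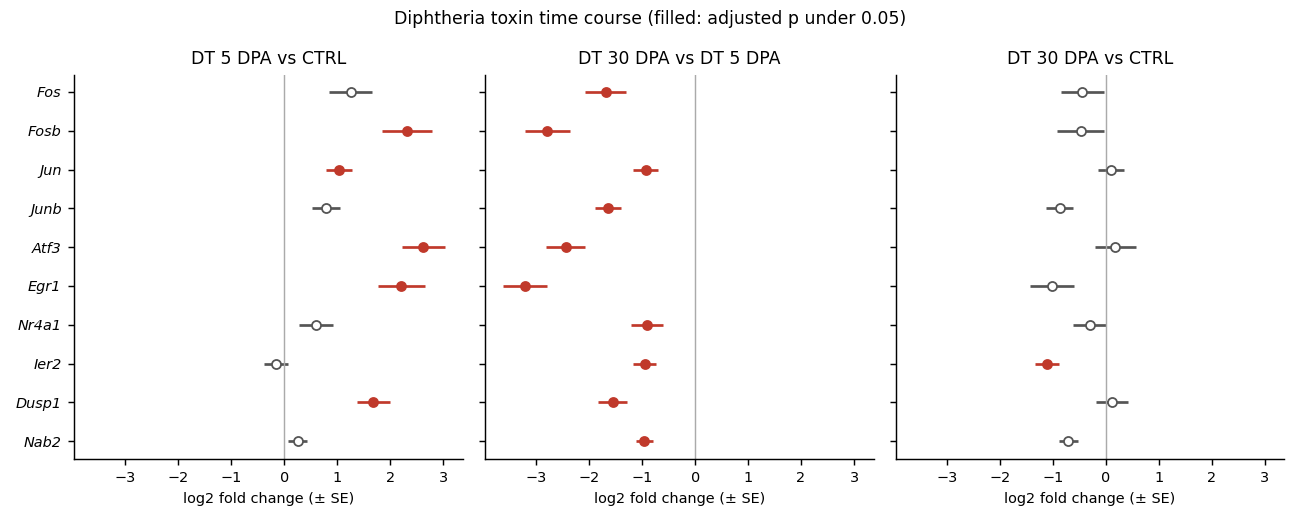
Log2 fold change with its SE for each of the 10 genes in the 3 comparisons of the DT time course, filled where the adjusted p was below 0.05. At 5 DPA 5 genes are filled above 0, from 5 to 30 DPA all 10 are filled below 0, and at 30 DPA against CTRL only Ier2 is filled.

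Between 5 and 30 DPA all 10 members fell. Of all genes tested, 13.9% were called lower. The members' log2 fold changes ranged from -3.22 (Egr1) to -0.91 (Nr4a1), with a median of -1.60 beside 0.02 over all genes. In 9 members every DT 30 DPA library lay below every DT 5 DPA library, as for 16.5% of all genes, and the exception was Nr4a1. This comparison shares its DT 5 DPA libraries with the previous one.

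Egr1 fell furthest, to 22.8, 23.7, 26.3 and 29.1 CPM (mean 25.5 ± 2.80, SD, n = 4), a 9.30-fold decrease (SE of the log2 value 0.42, adjusted p = 4.62e-06). The 4 libraries were close together where those of 5 DPA had been spread. Fosb fell to 0.745, 0.774, 0.874 and 1.21 CPM (log2 fold change -2.79, adjusted p = 3.70e-05). Atf3 fell to 3.20, 3.86, 5.29 and 7.35 CPM (log2 fold change -2.45, adjusted p = 2.84e-05). Fosb and Atf3 then overlapped their CTRL values, while every Egr1 library lay below CTRL.

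The other AP-1 genes fell as well. Fos was at 8.39, 11.7, 11.9 and 25.4 CPM (log2 fold change -1.69, adjusted p = 0.00197), Junb at 31.4, 32.8, 33.3 and 39.3 (-1.65, 2.57e-05). Jun was at 49.7, 52.5, 67.7 and 76.3 CPM (log2 fold change -0.94, adjusted p = 0.00363). For all of them the groups were separate, although Fos had 1 library far above the other 3, replicate 2. That library also held the enterocyte RNA of this group (3652 CPM) and the most sympathetic neuron RNA, 2801 CPM summed over 6 markers against 391.6 to 607 in the other 3, and the part of either in its Fos was not tested. Dusp1 was at 18.5, 21.5, 23.0 and 26.1 CPM (log2 fold change -1.56, adjusted p = 0.000250).

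Nab2, Ier2 and Nr4a1, which had not passed at 5 DPA against CTRL, were each lower at 30 than at 5 DPA. Nab2 was at 14.7, 17.0, 19.8 and 20.8 CPM (log2 fold change -0.96, adjusted p = 0.000199). Ier2 was at 12.3, 17.1, 18.7 and 21.9 CPM (log2 fold change -0.95, adjusted p = 0.00192). Nr4a1 was at 13.2, 17.0, 22.0 and 29.4 CPM (log2 fold change -0.91, adjusted p = 0.0222), and its call was lost without DT 5 DPA replicate 3, DT 30 DPA replicate 3 or DT 30 DPA replicate 4. Over the same interval all 10 myeloid and all 7 fibroblast markers were lower. Of the beta cell markers 9 of 10 were higher, as were 16.5% of all genes. The part of these cells in the members' fall was not tested. Without the libraries with enterocyte RNA 10 of 10 members were called, but DT 5 DPA is then replicate 3 alone, the library with the highest Fosb, Jun, Egr1, Dusp1 and Nr4a1 of all 33.

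Against CTRL, 1 member was lower at 30 DPA, where 0.0568% of all genes were. Ier2 stood at 24.7, 39.0 and 49.3 CPM in CTRL and at 12.3, 17.1, 18.7 and 21.9 in DT 30 DPA, without overlap (log2 fold change -1.10, SE 0.23, adjusted p = 0.04999). This p lies at the threshold, and 8 of 15 alternatives lost the call, among them those that left out replicate 1 or 2 of CTRL and replicate 2 or 4 of DT 30 DPA. The log2 fold change of Ier2 ranged from -1.33 to -0.73 over the 15. The share over all genes hung on single libraries too, since 10 genes were lower with all libraries and 2054 without CTRL replicate 3. Nab2 (log2 fold change -0.71, adjusted p = 0.0516), Junb (-0.87, 0.0628) and Egr1 (-1.01, 0.127) missed it. In these 4 members every DT 30 DPA library lay below every CTRL library, as for 4.92% of all genes. The members' median was -0.46, beside -0.02 over all genes. The remaining 6 members overlapped between the groups, with log2 fold changes from -0.48 (Fosb) to 0.18 (Atf3). CTRL replicates 1 and 2, the highest in Ier2, also held the most myeloid marker RNA of these groups, 1654 and 1815 CPM. CTRL replicate 3 held 713.9 and the DT 30 DPA libraries 523.8 to 1170. Lymphocyte sums were 1555 and 2176 CPM in CTRL replicates 1 and 2, 266.8 in replicate 3 and 228.1 to 555.7 at 30 DPA. None of the 10 myeloid or 11 lymphocyte markers passed, and their part in the lower Ier2 was not tested.

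**Figure D3:**
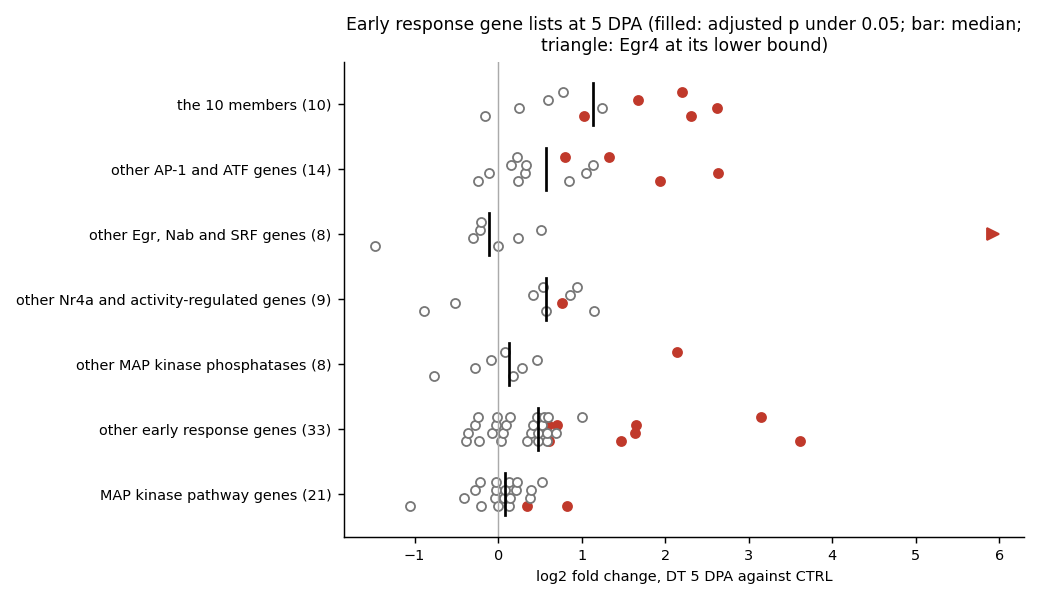
Log2 fold change at 5 DPA against CTRL for the 10 genes and for the genes of 6 further lists, 1 point per gene tested, filled where the adjusted p was below 0.05, with the median of each list as a bar. The members' median is 1.14, and the medians of the other lists lie between -0.10 and 0.57, while Egr4 is drawn at its lower bound.

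Other early response genes were read from lists that hold none of the members. At 5 DPA 15 of 72 were higher than in CTRL, where 3.80% of all genes were, and none was lower (median log2 fold change 0.42). By list, 4 of 14 AP-1 and ATF genes, 1 of 8 Egr, Nab and SRF genes, 1 of 9 Nr4a and activity-regulated genes, 1 of 8 MAP kinase phosphatases and 8 of 33 other genes passed. Of the MAP kinase pathway genes 2 of 21 tested were higher, Mapk14 and Mapkapk2, both named after their values were seen.

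The genes with the smallest adjusted p were led by Cebpb, a bZIP factor of inflammation and the acute phase. Its mean went from 14.4 ± 1.76 to 128 ± 28.6 CPM (SD, n = 3 and 4), an 8.87-fold rise (adjusted p = 1.90e-09). Its relative Cebpd went from 10.4 ± 3.65 to 32.8 ± 7.07 CPM (log2 fold change 1.65, adjusted p = 0.000715). Both are bZIP genes, as are the AP-1 members and the small Maf gene Maff, which went from 5.39 ± 1.62 to 20.6 ± 10.2 CPM (log2 fold change 1.93, adjusted p = 0.000287). Ier3, a stress-induced survival gene, went from 4.99 ± 0.401 to 13.8 ± 1.91 CPM (log2 fold change 1.47, adjusted p = 0.00311), and Dusp8, a phosphatase of stress kinases, from 7.55 ± 4.94 to 33.2 ± 21.0 CPM (log2 fold change 2.14, adjusted p = 0.00353). Egr4, a relative of Egr1, had 0 counts in all 3 CTRL libraries and 11 to 99 counts in the DT 5 DPA libraries. Against a floor of 3 counts over the CTRL group its mean was at least 60.9-fold higher (adjusted p = 0.00415).

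From 5 to 30 DPA 34 of these 72 genes were lower and 1, Atf2 (named after its value was seen), was higher (median log2 fold change -0.59). The smallest adjusted p among them were those of Cebpb (log2 fold change -3.09, adjusted p = 1.76e-10), the Krüppel-like genes Klf6 (-1.07) and Klf10 (-0.93), the stress sensor Gadd45b (-1.24) and Maff (-1.77). Of the MAP kinase pathway genes 7 of 21 were lower and 2 higher, and Mapkapk2, a kinase downstream of p38, was lowest in adjusted p (log2 fold change -1.36, adjusted p = 3.08e-06). Over this interval 13.9% of all genes were lower and 16.5% higher. At 30 DPA against CTRL 1 of 72 was higher, where 0.176% of all genes were. It was the Polo-like kinase gene Plk3 (log2 fold change 1.05, adjusted p = 0.04999). This p lies at the threshold, in a comparison whose calls hung on single libraries, and Plk3 was not followed in the alternatives.

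No member passed between DT SD at 10 weeks and DT 30 DPA, which has no diet in its label. Of all genes, 0.0568% were called in either direction. By edgeR 0 of 10 passed, 2 had an unadjusted p below 0.05, and DESeq2 called 0. Nab2 was the 1 member with every DT SD library below every DT 30 DPA library (log2 fold change -0.49, adjusted p = 0.255), as for 4.02% of all genes.

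Against CTRL SD, 1 member was lower in DT SD, where 0.0284% of all genes were. Nab2 stood at 21.3, 27.0 and 31.7 CPM in CTRL SD and at 11.4, 11.7, 13.8 and 14.4 in DT SD. The lowest CTRL SD library lay well above the highest DT SD library. The mean fell from 26.7 ± 5.21 (SD, n = 3) to 12.8 ± 1.505 CPM (SD, n = 4), 2.08-fold (log2 fold change -1.06, SE 0.18, adjusted p = 0.0130). The call was lost without CTRL SD replicate 2 or 3 or DT SD replicate 1 or 3, and the log2 fold change stayed between -1.195 and -0.91 over 15 alternatives.

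With Nab2, Junb and Ier2 were lower in every DT SD library than in every CTRL SD library, as were 8.58% of all genes, but did not pass. Junb stood at 36.5, 41.7 and 43.2 CPM in CTRL SD and 16.6, 27.5, 31.6 and 35.6 in DT SD (log2 fold change -0.54, adjusted p = 0.613). Ier2 stood at 21.9, 24.0 and 25.5 CPM in CTRL SD and 10.4, 14.4, 16.1 and 18 in DT SD (log2 fold change -0.69, adjusted p = 0.435). The other 7 members ranged from -0.73 (Nr4a1) to 0.55 (Dusp1) on the log2 scale. The summed beta cell markers were 232560 to 254740 CPM in DT SD and 163380 to 185620 in CTRL SD, and their part in the lower Nab2 was not tested.

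With STZ on the same diet 0 of 10 members passed against CTRL SD, where 0.00568% of all genes did. By edgeR 2 members had an unadjusted p below 0.05, and DESeq2 called 1, Fos. Fos stood at 10.9, 11.6 and 15.7 CPM in CTRL SD and at 14.0, 32.4, 37.2 and 59.6 in STZ SD. The STZ libraries were spread more than 4-fold and 1 lay within the CTRL SD range (log2 fold change 1.496, SE 0.42, adjusted p = 0.118). Junb was the 1 member with every STZ SD library above every CTRL SD library, at 45.4, 56.1, 64.8 and 101 CPM (log2 fold change 0.72, adjusted p = 0.211), as for 3.62% of all genes.

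The toxins themselves were compared on SD, and 4 of 10 members were higher in STZ SD than in DT SD, where 2.16% of all genes were. They were Fos (log2 fold change 1.87, SE 0.38, adjusted p = 0.0228), Junb (1.27, 0.24, 0.0203), Ier2 (0.80, 0.21, 0.0428) and Nab2 (0.71, 0.17, 0.0310). Fos stood at 7.75, 9.18, 10.9 and 11.6 CPM in DT SD, below each STZ SD library. Nab2 stood at 18.3, 18.6, 21.6 and 25.8 CPM in STZ SD against 11.4 to 14.4 in DT SD. Fos, Fosb, Junb and Nab2 had every STZ SD library above every DT SD library, as for 3.81% of all genes.

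These 4 calls were lost in several alternatives. STZ SD replicates 1 and 4 carried enterocyte RNA (11289 and 20619 CPM summed over 10 markers, against 48.9 to 57.8 in DT SD), and replicate 1 held the highest Fos, Junb, Ier2 and Nab2 of the group. Replicate 4, with the most enterocyte RNA, held the second highest Fos and Junb but the lowest Ier2 (16.4 CPM) and Nab2 (18.3 CPM). The summed beta cell markers were also apart, at 63186 to 194570 CPM in STZ SD and 232560 to 254740 in DT SD, although none of the 10 markers passed. The part of either in the members' difference was not tested. Without the libraries with enterocyte RNA 0 of 10 members were called, as without STZ SD replicate 1, without DT SD replicate 1 or 3, and in the fit of the compared groups alone. Without DT SD replicate 2 or 4, 1 of 10 was called. The signs held in all 16 alternatives. The log2 fold change ranged from 0.60 to 0.78 for Nab2, from 0.58 to 0.97 for Ier2, from 0.87 to 1.41 for Junb and from 1.24 to 2.13 for Fos. The lowest values of Fos and Junb were those without the libraries with enterocyte RNA. Of the other lists 3 of 72 genes passed, all higher, among them Klf4 (log2 fold change 1.37, adjusted p = 0.0261), a factor that intestinal epithelium also expresses, and Zfp36, an RNA-binding protein that destabilizes messengers (1.10, 0.0369). The kinase gene Rps6ka1 of the MAP kinase list was also higher (1.58, 0.0261).

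**Figure D4:**
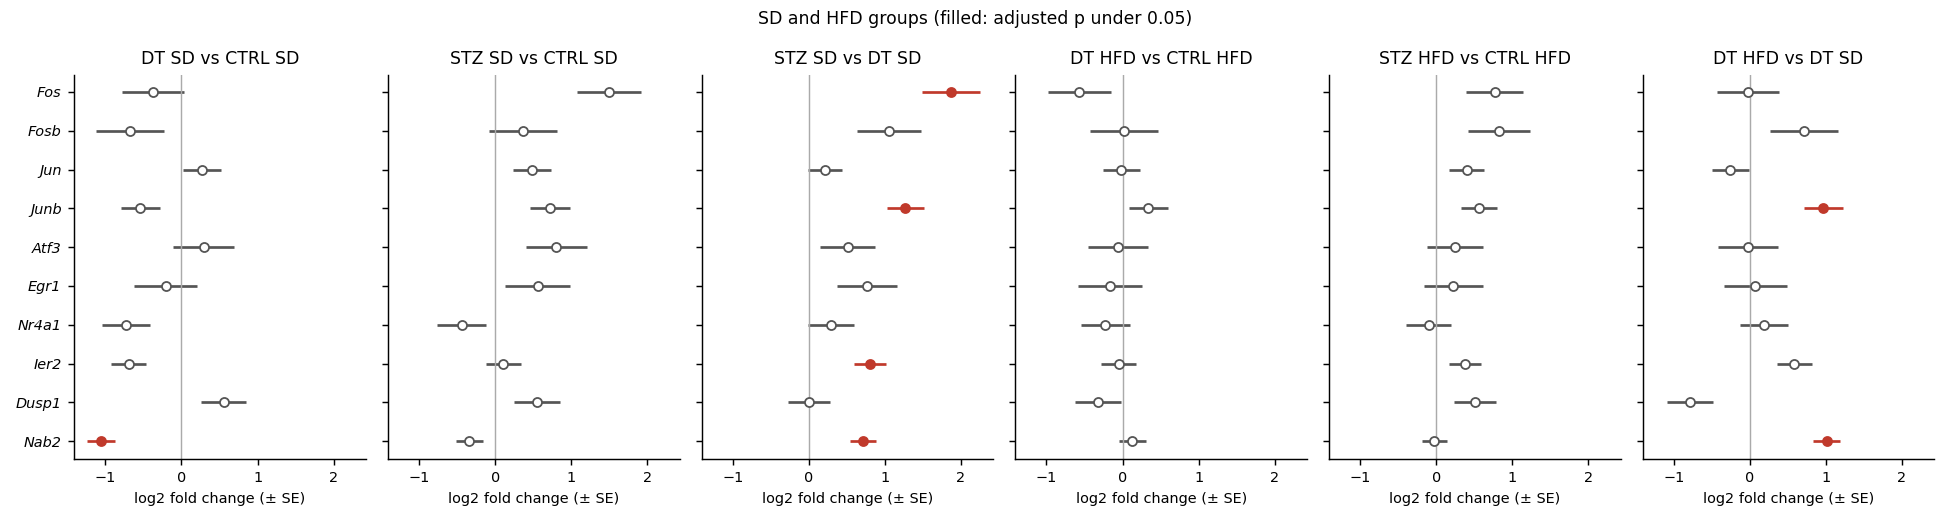
Log2 fold change with its SE for each of the 10 genes in 6 comparisons of the SD and HFD groups at 10 weeks, filled where the adjusted p was below 0.05. Filled points are Nab2 below 0 in DT SD against CTRL SD, Fos, Junb, Ier2 and Nab2 above 0 in STZ SD against DT SD, and Junb and Nab2 above 0 in DT HFD against DT SD.

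On HFD no member passed in any comparison between treatments. Between DT HFD and CTRL HFD 0 of 10 were called (0.00568% of all genes), 0 had an unadjusted p below 0.05 and DESeq2 called 0. Between STZ HFD and CTRL HFD 0 of 10 were called by edgeR (0.471% of all genes), with 1 at an unadjusted p below 0.05 and 0 by DESeq2. Ier2 and Dusp1 were nevertheless higher in every STZ HFD library than in every CTRL HFD library, as were 4.22% of all genes. Dusp1 stood at 17.0, 18.8, 21.3 and 24.7 CPM in CTRL HFD and 27.2, 28.6, 29.9 and 31.2 in STZ HFD (log2 fold change 0.51, adjusted p = 0.425). STZ HFD replicate 4 had the fewest Dusp1 counts of its group, 193, but the highest CPM, so its place depends on how library sizes were scaled. On the authors' TPM, scaled by gene length, Dusp1 was at 17.5 ± 6.73 in STZ HFD and 15.9 ± 4.17 in CTRL HFD. Ier2 was at 31.8 ± 12.6 and 31.8 ± 9.66 TPM (SD, n = 4 and 4). TPM have no TMM scaling, and STZ HFD replicate 4 held the lowest TPM of all 33 libraries for Jun, Nab2 and Nr4a1. The remaining STZ HFD libraries, at 27.2, 28.6 and 29.9 CPM of Dusp1, also lay above every CTRL HFD library.

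Between STZ HFD and DT HFD 0 of 10 were called by edgeR (0.341% of all genes), with 2 at an unadjusted p below 0.05, and DESeq2 called 1, Fos. Fos, Ier2 and Dusp1 were higher in every STZ HFD library than in every DT HFD library, as were 5.15% of all genes. In TPM, again without TMM scaling, the STZ HFD and DT HFD means were 16.4 ± 6.45 and 9.76 ± 4.61 for Fos (SD, n = 4 and 3). They were 31.8 ± 12.6 and 33.5 ± 3.88 for Ier2, and 17.5 ± 6.73 and 14.1 ± 2.41 for Dusp1. Fos stood at 7.00, 8.24 and 13.8 CPM in DT HFD and at 16.1, 25.8, 26.3 and 29.3 in STZ HFD (log2 fold change 1.34, SE 0.42, adjusted p = 0.118). Without STZ HFD replicate 4, the library rich in acinar RNA, 0 of 10 members were called against CTRL HFD, DT HFD or STZ SD, and the calls over all genes went from 83 to 8, from 60 to 1 and from 24 to 0.

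Between the diets after DT 2 of 10 members differed, where 23.5% of all genes were called in either direction. The members were thus not called more often than genes at large. Nab2 and Junb were higher in DT HFD than in DT SD, where 15.0% of all genes were called higher. Nab2 stood at 11.4, 11.7, 13.8 and 14.4 CPM in DT SD and at 24.8, 25.1 and 27.6 in DT HFD, with means of 12.8 ± 1.505 (SD, n = 4) and 25.8 ± 1.52 CPM (SD, n = 3) (log2 fold change 1.01, SE 0.18, adjusted p = 0.00316). Junb stood at 16.6, 27.5, 31.6 and 35.6 CPM in DT SD and at 41.1, 47.8 and 74.1 in DT HFD (log2 fold change 0.97, SE 0.26, adjusted p = 0.0114). With Ier2 they were the 3 members whose DT HFD libraries all lay above the DT SD libraries, as for 20.7% of all genes. Dusp1 was the 1 member with every DT HFD library below every DT SD library, as for 18.4% of all genes. The members' median was 0.13, beside -0.01 over all genes.

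Both calls were lost without DT HFD replicate 2, where the log2 fold change was 0.96 for Nab2 (adjusted p = 0.0824) and 0.68 for Junb (adjusted p = 0.157). Lymphocyte markers moved in the same comparison, 7 of 11 being higher. Their sums were 1237 to 2191 CPM in DT HFD against 81.5 to 787.5 in DT SD. Of 10 beta cell markers 7 were lower, and of 6 endothelial markers 2. Of 10 enterocyte markers 5 were higher. Their sums were 2713 CPM in DT HFD replicate 1, 14.4 and 30.2 in replicates 2 and 3, and 48.9 to 57.8 in DT SD. The part of these cells was not tested. Dusp1 had the opposite sign, at 18.7, 24.2, 30.7 and 38.8 CPM in DT SD and 14.4, 16.9 and 17.8 in DT HFD, and missed the threshold (log2 fold change -0.78, adjusted p = 0.0591). Of the other lists 18 of 72 genes were higher and 10 lower, where 15.0% of all genes were higher and 8.46% lower. Named by the smallest adjusted p were Zfp36 (log2 fold change 1.41, adjusted p = 0.00466), the stress factor Atf5 (-1.44, 0.00580) and the pseudokinase gene Trib1 (-0.74, 0.00582).

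In untreated and in STZ-treated islets no member passed between the diets. Between CTRL HFD and CTRL SD 0 of 10 were called by edgeR, none at an unadjusted p below 0.05 and none by DESeq2, and 0% of all genes passed, with 439 at an unadjusted p below 0.05. Between STZ HFD and STZ SD 0 of 10 were called (0.136% of all genes), none at an unadjusted p below 0.05 and none by DESeq2. Klf4 was the 1 gene of the other lists to pass there (log2 fold change -1.65, adjusted p = 0.0420). It stood at 19.1 ± 2.87 CPM in STZ HFD and at 60.2 ± 36.0 in STZ SD (mean and SD). Without STZ HFD replicate 4, the library rich in acinar RNA, no gene passed in this comparison. STZ SD replicates 1 and 4 carried enterocyte RNA, and its part in Klf4 was not tested.

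Whether the effect of a toxin differed between diets was tested as an interaction. For DT 0 of 10 members passed by edgeR and 0% of all genes did, with 3 members and 2751 genes at an unadjusted p below 0.05. Nab2 had the smallest p of the members, with a log2 difference of 1.18 (SE 0.25, adjusted p = 0.182), and it was the 1 member that DESeq2 called. For STZ 0 of 10 members passed by edgeR and 0% of all genes did, with 0 members and 1163 genes at an unadjusted p below 0.05, and DESeq2 called 0 members.

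Levels can be compared between genes on the authors' TPM, which are scaled by gene length. By the median over 33 libraries the order was Junb (38.2), Jun (29.9), Ier2 (29.0), Nab2 (16.9), Dusp1 (16.6), Nr4a1 (15.8), Egr1 (13.9), Fos (12.4), Atf3 (2.71) and Fosb (0.768). In DT 5 DPA this order changed. Egr1 had the highest mean TPM there, 117 ± 71.0 (SD, n = 4), against 27.0 ± 8.42 in CTRL (SD, n = 3), followed by Junb with 106 ± 14.1 and Jun with 83.3 ± 16.9. The Egr1 libraries were so spread that its level did not stand apart from that of Junb.

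Across the 9 groups the highest CPM of 9 members was in DT 5 DPA by the mean, Ier2 being highest in CTRL. The dynamic range differed between genes. From the lowest to the highest of 33 libraries Egr1 spanned 31.1-fold, Fosb 27.8-fold and Atf3 25.5-fold, while Ier2 spanned 4.72-fold, Jun 4.24-fold and Nab2 3.67-fold. Fos was the only member with its highest single library outside the first 2 groups of the time course, in STZ SD replicate 1 (59.6 CPM), just above the highest DT 5 DPA library (56.9 CPM). The second highest group mean of Fos was also that of STZ SD, 35.8 ± 18.7 CPM (SD, n = 4).

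**Figure D5:**
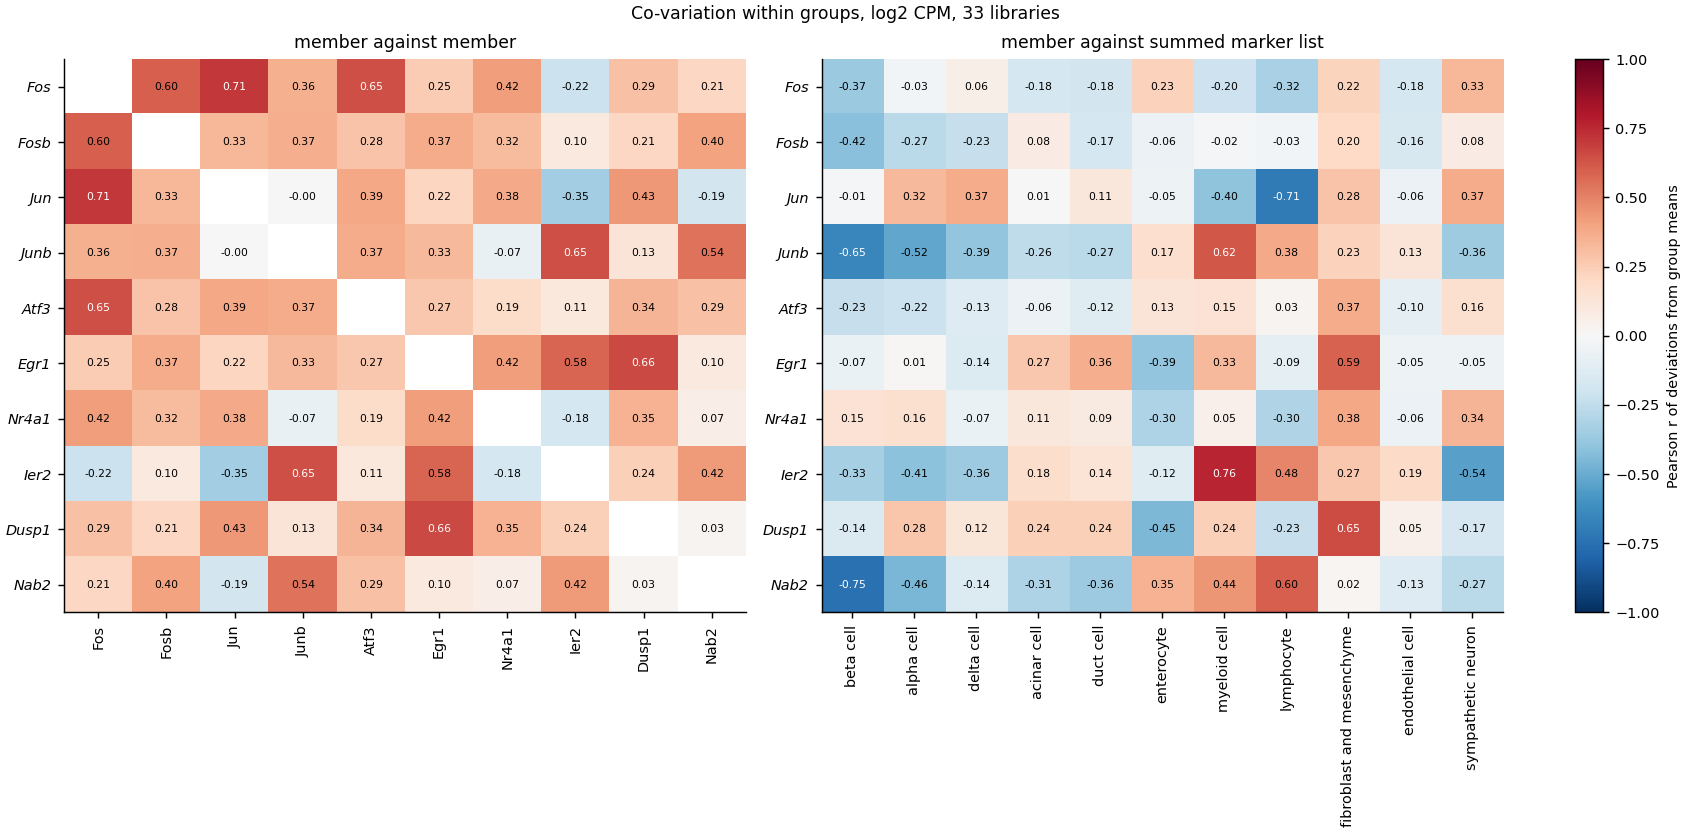
Pearson r of the deviations of log2 CPM from each group's mean over 33 libraries, between members (left) and between members and the summed level of 11 marker lists (right). The strongest member pair is Fos with Jun at 0.71, and the strongest relations to markers are Ier2 with myeloid markers at 0.76 and Nab2 with beta cell markers at -0.75.

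Within groups the members did not vary as 1 block. After the group means were taken off, the 45 pairs had a median r of 0.32 over 33 libraries, from -0.35 (Jun with Ier2) to 0.71 (Fos with Jun), with 7 pairs above 0.5 and 6 below 0. Fos went with Jun, Atf3 (0.65) and Fosb (0.60). Egr1 went with Dusp1 (0.66) and Ier2 (0.58). Junb went with Ier2 (0.65) and Nab2 (0.54), while its r with Jun was close to 0. The points share their libraries and the scaling to CPM, and these values are a description.

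Several members also varied with the markers of particular cells. Ier2 (0.76) and Junb (0.62) went with the summed myeloid markers, and Dusp1 (0.65) and Egr1 (0.59) with the fibroblast markers. Nab2 went with lymphocyte markers (0.60) and against beta cell markers (-0.75), as did Junb (-0.65). Jun went against lymphocyte markers (-0.71). Atf3 and Fosb had r between -0.02 and 0.15 with myeloid markers and between 0.20 and 0.37 with fibroblast markers. Fosb had an r of -0.42 with beta cell markers. These r leave out the differences between groups, so they do not bear on the rise at 5 DPA.

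The mean log2 CPM of the 10 members was 5.13 to 5.91 in DT 5 DPA, apart from 3.33 to 4.82 in every other group. The genes that followed this mean most closely over 33 libraries, out of 13168 genes whose log2 CPM averaged at least 1, were Pxn (r = 0.92), P2rx7 (0.89), Cxcl10 (0.88), Msr1 (0.88), Rab32 (0.88) and Cmtm3 (0.88). Since DT 5 DPA stands apart, these r depend on it. Over the 29 libraries of the other groups they were 0.76 (Pxn), 0.55 (P2rx7), 0.62 (Cxcl10), 0.53 (Msr1), 0.60 (Rab32) and 0.48 (Cmtm3). Msr1, the macrophage scavenger receptor, went from 10.3 ± 5.06 CPM in CTRL (SD, n = 3) to 127 ± 13.3 in DT 5 DPA (SD, n = 4) and 5.68 ± 2.23 in DT 30 DPA (SD, n = 4). Cxcl10, an interferon-induced chemokine, went from 6.45 ± 2.49 to 66.0 ± 13.4 and 4.605 ± 3.28 CPM in the same groups.

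The members lie on 9 chromosomes of GRCm38 and are all protein-coding, by GENCODE M21. The AP-1 genes are Fos (chromosome 12, 85473890 to 85477273, plus strand), Fosb (chromosome 7, 19302696 to 19310051, minus strand), Jun (chromosome 4, 95049034 to 95052222, minus strand) and Junb (chromosome 8, 84974484 to 84978718, minus strand). Atf3 is on chromosome 1, 191170296 to 191218039, minus strand, Egr1 on chromosome 18, 34859823 to 34864984, plus strand, and Nab2 on chromosome 10, 127660918 to 127668568, minus strand. Nr4a1 is on chromosome 15, 101254269 to 101274795, plus strand, Ier2 on chromosome 8, 84661331 to 84662852, minus strand, and Dusp1 on chromosome 17, 26505590 to 26562128, minus strand. Exons of 4 members overlap exons on the opposite strand. Nab2 shares 1050 exonic bases with the antisense gene Gm16229, 151 with Nemp1 and 40 with Stat6, Jun shares 232 with its antisense gene Junos, Junb 173 with Prdx2, and Dusp1 11 with Ergic1. No source used here gives the strand setting of the counting, so reads of these pairs may not have been told apart, Nab2 most of all.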

How the data were processed

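Per the labels' protocols, islet RNA was purified with an RNeasy Mini kit and turned into libraries with QIAseq stranded mRNA reagents. The submitters' processing notes name the assembly mm10, and the sources used here give no aligner, counter, strand setting or annotation. The table holds total counts of reads per gene, without normalization, per the file headers. The TPM values deposited beside them were used only to order genes by level and to set STZ HFD beside the other HFD groups on another scale. A deposited column headed CPM is a score of unknown scaling, since its sums differ between libraries (784208.6 to 2106332.0), and neither it nor the deposited RPKM was used.

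Counts of 33 libraries in 9 groups were fitted once in edgeR 4.0.16 (limma 3.58.1, R 4.3.3) with filterByExpr (count minimum 10, total 15), TMM scaling and the quasi-likelihood F test over 15 contrasts, adjusted over all genes (Benjamini-Hochberg). CPM were taken over library sizes after TMM scaling. Fold changes are log2 with their SE. The mean log2 CPM used a prior count of 2. The 34th library has a title and a treatment label that disagree, and entered no comparison. Columns of other samples numbered 0. Identifiers were matched to GENCODE M21 on GRCm38 (48349 of 48709). Libraries of a group differed beyond counting noise (smallest chi-square per degree of freedom 25.9 over 45 pairs). The edgeR script was tested on simulated data.

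The members and all gene and marker lists were chosen with earlier results of these data known. Named beside the members were the called list genes with the smallest adjusted p (up to 6 in DT 5 DPA against CTRL and in DT 30 DPA against DT 5 DPA, up to 3 in the others) and the 6 genes closest to the members' mean. Alternatives were DESeq2 size factors, DESeq2 1.42.0, no filter, hormone genes dropped before scaling, a stricter filter (1 CPM in 3 libraries, 50 counts in all), a replicate block, the compared groups alone, leaving out libraries with over 500 CPM of enterocyte markers, and leaving out each replicate.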

Additional observations from a re-analysis of the deposited data

Results flagged for a closer look

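In 3 of 60 groups of 4 libraries 1 library stood far from the other 3, which is as many as the rate of about 1 in 20 groups gives by chance. Fos was at 8.17 CPM in CTRL HFD replicate 2, against 15.4 to 17.1 CPM in the other 3. Jun was at 47.5 CPM in STZ HFD replicate 2, against 63.7 to 67.5 CPM. Dusp1 was at 11.8 CPM in STZ SD replicate 4, the library with the most enterocyte RNA, against 31.9 to 34.7 CPM.

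The library that entered no comparison, titled as an untreated HFD sample and labelled DT, held 3 members above every untreated library (n = 10). Fos was at 50.1 CPM against at most 32.2, Fosb at 3.92 against at most 2.63, and Dusp1 at 33.5 against at most 30.1. These values come from a scaling that includes this library.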

How the results depend on the processing

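No called member reversed its sign in any of 359 alternative values of 23 calls, but 57 of these values, in 12 calls, no longer passed. Of 118 results never called, 39 changed sign in at least 1 alternative. The number of members called moved as follows, and the cause was not tested. For DT 5 DPA against CTRL it was 5, 2 with the compared groups alone, 7 with DESeq2 and 4 to 6 when single replicates were left out. For DT 30 DPA against CTRL it was 1, but 0 with no low-count filter, with the replicate block, without libraries holding enterocyte RNA and with the compared groups alone, 2 with the stricter filter and with hormone genes left out, 3 with DESeq2, and 0 to 3 without single replicates. For DT SD against CTRL SD it was 1, 0 with the compared groups alone, and 0 to 1 without single replicates. For STZ SD against CTRL SD it was 0, 1 with DESeq2, and 0 to 1 without single replicates (1 without STZ SD replicate 3). For STZ SD against DT SD it was 4, 2 with no filter, 0 without libraries holding enterocyte RNA and with the compared groups alone, and 0 to 4 without single replicates. For DT HFD against DT SD it was 2, 4 without libraries holding enterocyte RNA and with DESeq2, and 0 to 4 without single replicates (4 without DT SD replicate 4). For STZ HFD against DT HFD DESeq2 called 1, and for the DT by diet interaction 1 was called by DESeq2 and without the libraries with enterocyte RNA, in each case against 0. Between 5 and 30 DPA 9 or 10 were called throughout.

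Counts over all genes were as unstable: DT 30 DPA against CTRL gave 41 genes, while DESeq2 gave 904 higher and 939 lower, and edgeR without CTRL replicate 3 gave 2219 higher and 2054 lower. At 5 DPA 949 genes became 306 higher and 14 lower with the compared groups alone.

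Replicates with the same number did not deviate together throughout (r from 0.08 to 0.65 for DT 5 DPA and CTRL, where 2 of 3 DT libraries correlated best with their own number in CTRL), so the numbers were not taken as pairs. With the replicate block 5 members were called at 5 DPA and 0 at 30 DPA against CTRL. The block also lost Ier2 in STZ SD against DT SD (4 to 3 called) and gained Dusp1 in DT HFD against DT SD (2 to 3), and changed no other call of a member. DT 5 DPA had 1 library left without enterocyte RNA, assumed to vary like the others. Fosb, the member with the fewest counts, is the one whose precision depth limits most (0.35 to 9.70 CPM).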

Other observations

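In the library that the labels put in no clear group the other 7 members lay within the range of the untreated libraries. Jun was at 78.4 CPM, Junb at 80.6, Ier2 at 46.3, Egr1 at 43.2, Nab2 at 25.5, Nr4a1 at 22.5 and Atf3 at 4.67. Jun, Junb and Ier2 lay above the 4 CTRL HFD libraries, whose highest values were 51.6, 58.0 and 26.1 CPM, and Atf3 lay just above their highest value of 4.30.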
